A study of Oryza sativa with 12 samples.

Results

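On the Affymetrix Rice Genome array, 40 of 57258 rice probe sets read a signal above 100 on all 6 arrays of root RNA from the variety Bala and below 10 on all 6 arrays of the variety Azucena, whether or not the plants had received arsenate. A probe set is a group of short oligonucleotides that together read 1 transcript, and the signal is the linear MAS5 value deposited by the authors. The 40 were selected on these signals, so the difference between the varieties is described here and not tested. The mirror rule, above 100 on all Azucena arrays and below 10 on all Bala arrays, held for 72 probe sets.

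Each variety was grown without arsenate (control) and with it, in 3 arrays per group. Seedlings spent 7 days in hydroponics, at 0 ppm arsenate in the controls and at 1 ppm (13.3 uM) in the treated groups, and each array held root RNA pooled from 4 plants of 1 pot. The replicate numbers 1 to 3 name experiments grown at different times, and each of them held all 4 groups. Nothing in the labels gives a genetic change in either variety.

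Bala belongs to the indica group of rice and Azucena to the japonica group. The groups are known to differ by many sequence variants within shared genes and by genes that are present in one genome and missing from the other. An array probe binds its target by base pairing, so a probe set can read near background where a transcript is scarce, where the gene is missing, or where the transcript is present with a different sequence under the probes. These cases could not be told apart from a single probe set, and in whole roots fewer cells of a type and less RNA per cell cannot be told apart either. Other probe sets of the same gene give the nearest second reading, and they are described below for every gene that has one.

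Array medians ran from 7.3 to 10.3, and the number of arrays limits the precision. Of 6 root markers listed, 4 were found on the array, and their summed signal was 9335 to 11808 in Bala controls and 10867 to 11392 in Azucena controls. The sum was 1574 to 5937 in Bala and 2282 to 4297 in Azucena with arsenate. The marker OsHKT1 did not follow the sum in Bala, at 19.7 to 92.4 in controls and 64.0 to 85.2 with arsenate. Of 9 markers of green shoot tissue, 5 were found. Their summed signal was 1017 to 3758 in Bala controls, 212.0 to 2344 in Azucena controls, 184.3 to 3417 in Bala with arsenate and 85.3 to 143.3 in Azucena with arsenate. The lowest of them, OsGLK1, read 0.3 to 1.6 in Azucena and 1.0 to 24.0 in Bala with arsenate. For GAPDH, a control transcript read near both of its ends, the 3' signal over the 5' signal was 1.43 to 2.17 in Bala controls and 7.58 to 8.60 in Azucena controls. The same ratio overlapped between the varieties for actin (2.54 to 3.66 in Bala controls, 2.24 to 6.87 in Azucena controls) and cyclophilin (1.88 to 2.44 and 2.08 to 2.54). With arsenate the GAPDH ratio was 3.53 to 3.78 in Bala and 8.86 to 23.8 in Azucena. The arsenate arrays of the varieties overlapped for actin (6.82 to 8.59 in Bala, 5.15 to 8.45 in Azucena) and cyclophilin (2.08 to 2.90 and 2.46 to 3.23). The part of these differences in what follows was not tested.

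Most of the 40 probe sets had no gene name. The annotation gave a gene to 11 of them (27.5%), against 39.2% of all probe sets and 84.7% of the 10457 probe sets that read above 100 on all 6 Bala arrays. The 72 probe sets of the mirror rule had a gene in 59.7% of cases. The 11 named probe sets stood for 10 genes, of which RefSeq lists 8 as protein coding and 2, LOC4345175 and LOC4346960, as long non-coding RNAs. None of the 10 had a name other than its locus number, so what their products do is not stated here. Names beginning with OsAffx form a naming series of their own on the array, and 8 of the 40 (20%) were of this kind, against 44.5% of all probe sets and 5.8% of the probe sets above 100 on all Bala arrays. The endings _s_at and _x_at mark probe sets that can match several transcripts, and 12 of the 40 (30%) had one, against 17.4% of all probe sets and 18.6% of the probe sets above 100 on all Bala arrays.

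Across the 240 Bala readings of the 40 probe sets the signal ran from 103.6 to 3922, with a median of 381.0. Across the 240 Azucena readings, all held below 10 by the rule, it ran from 0.1 to 9.9, with a median of 2.7. Of these readings 106 lay below 2.1, the 25th percentile of all signals on the arrays. The rule favours such low readings, since it keeps only Azucena signals below 10 and the median of all signals was 9.4. The mean Bala signal was above 1000 for 3 probe sets, between 200 and 1000 for 31 and below 200 for 6. Just inside the limits were Os.20063.1.S1_x_at, with a lowest Bala signal of 103.6, and Os.19102.1.S1_at (LOC4345175), with a highest Azucena signal of 9.9. Just outside were Os.18503.1.S1_at, with a lowest Bala signal of 99.5, and OsAffx.12042.1.S1_s_at, with a highest Azucena signal of 10.4.

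**Figure D1:**
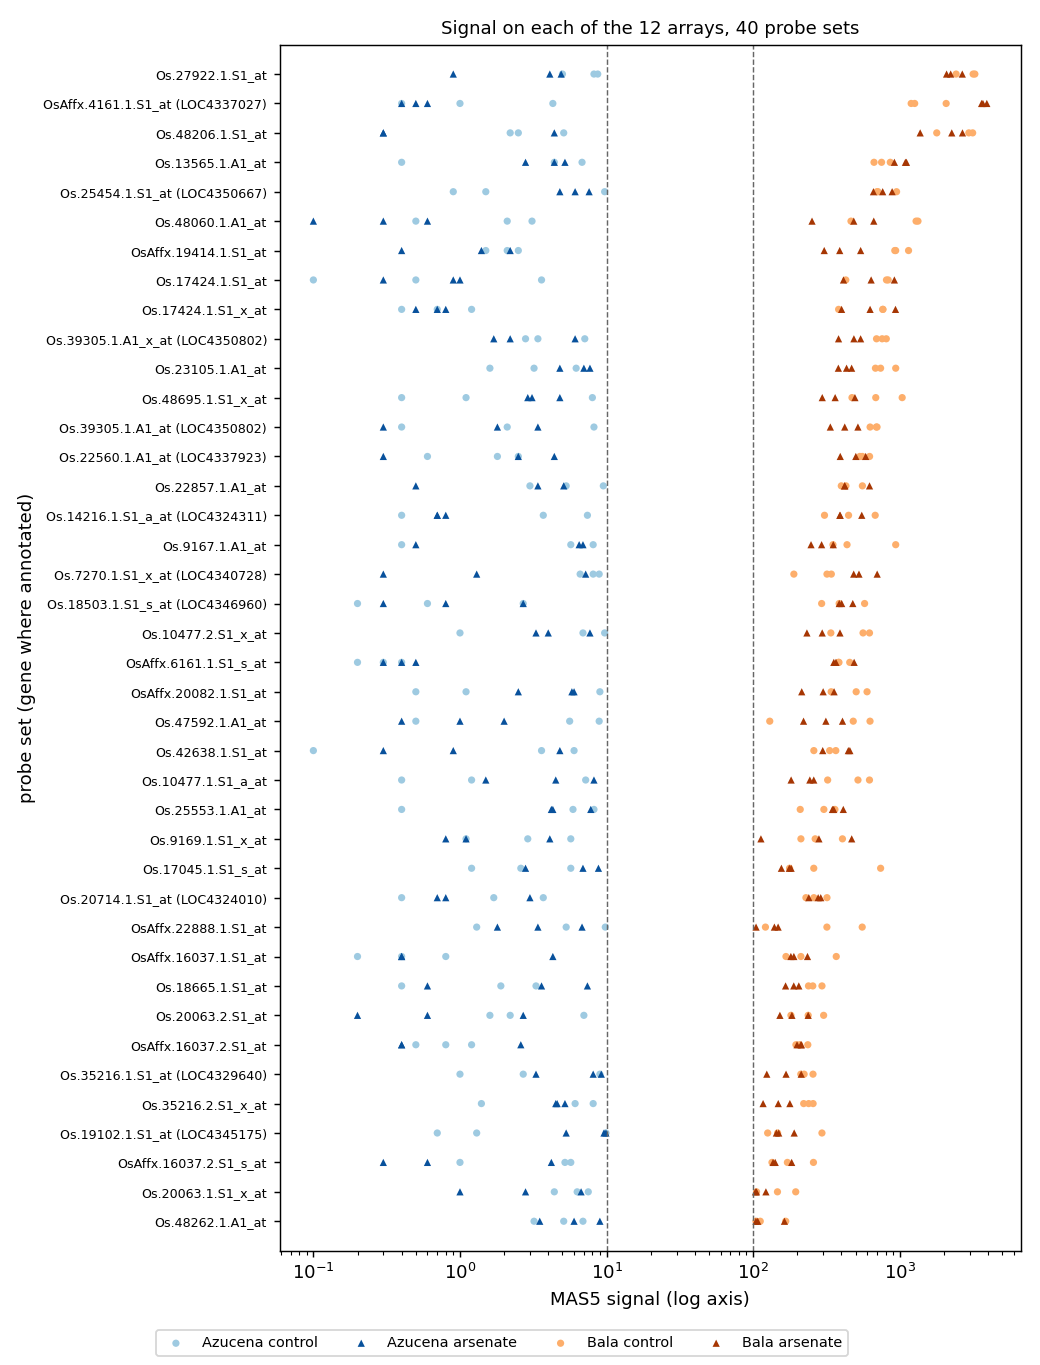
Signal (log axis) of each of the 40 probe sets on each of the 12 arrays, ordered by mean Bala signal, with circles for control, triangles for arsenate, blue for Azucena and orange to brown for Bala. The dashed lines are the limits of 10 and 100 that chose the probe sets. The choice sets the empty band between them, and it bounds the Azucena signals from above and the Bala signals from below.

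The highest mean signals were those of Os.27922.1.S1_at, OsAffx.4161.1.S1_at (LOC4337027) and Os.48206.1.S1_at. Os.27922.1.S1_at, with no gene in the annotation, read 3250, 3163 and 2421 in Bala control and 2223, 2085 and 2668 in Bala arsenate in experiments 1 to 3, against 0.9 to 8.7 over the 6 Azucena arrays. Os.48206.1.S1_at, also without a gene, read 3139, 2957 and 1786 in Bala control and 2262, 2676 and 1377 in Bala arsenate, against 0.3 to 5.1 in Azucena. Control and arsenate arrays overlapped for both. OsAffx.6161.1.S1_s_at, which read 0.5 or less on every Azucena array, was at 381.1, 384.6 and 455.4 in Bala control and 366.8, 354.7 and 488.1 in Bala arsenate.

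Some of the 40 read the same transcript. By the cluster number in their names, which the array design gives to sequences of 1 transcript group, they fell into 33 clusters, and 6 clusters held 13 of them. The plain and _x_at probe sets of cluster Os.17424 gave 811.0, 428.0 and 833.1 against 767.7, 382.5 and 764.5 in Bala control. The 3 probe sets of cluster OsAffx.16037 had mean Bala signals of 225.3, 210.4 and 170.6. Such probe sets are not separate evidence, and counts below are of probe sets.

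For several genes another probe set assigned to the same gene read high in Azucena. Of the 40 probe sets, 17 had at least 1 probe set of the same gene or cluster outside the 40, 7 had mates only among the 40, and 16 had none. The 17 led to 18 other probe sets. All 6 Bala arrays lay above all 6 Azucena arrays for 8 of the 18, all 6 lay below for 3, and the varieties overlapped for 7. Over all 28461 probe sets that passed the filter on mean signal, the Bala arrays lay above for 3.36% and below for 6.25%. The other probe sets share genes or clusters with the 40, and their difference between the varieties was not tested. Except for Os.52321.1.S1_at, the 8 carried the cluster number of a probe set among the 40, so they are not independent of the choice. The 3 that lay below carried cluster numbers found in none of the 40. Of the 7 that overlapped, 5 read above 50 on all 12 arrays, all of them _s_at or _x_at probe sets whose signal need not come from that gene alone, and 2 had a mean signal below the filter value of 9.4.

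LOC4337923, a protein-coding gene on chromosome 5, showed all 3 patterns. Os.22560.1.A1_at, among the 40, read 555.3, 621.9 and 533.5 in Bala control and 501.2, 392.4 and 585.0 in Bala arsenate, against 0.3 to 4.4 in Azucena. Os.5838.1.S1_at of the same gene was the reverse, with 178.7, 161.0 and 205.2 in Azucena control and 183.1, 179.0 and 168.4 in Azucena arsenate against 1.6 to 8.9 in Bala, and it met the mirror rule. Os.22560.1.A1_s_at, whose name shares the cluster of the first, read 637.0, 715.8 and 629.0 in Azucena control and 931.3, 866.0 and 868.5 in Bala control. With arsenate it read 777.3, 648.5 and 594.9 in Azucena and 783.8, 565.1 and 849.5 in Bala. Probe sets assigned to this gene thus read high in Bala alone, in Azucena alone and in both, and it was the 1 gene with probe sets under both rules.

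LOC4350802, a protein-coding gene on chromosome 11, had 2 probe sets among the 40. Os.39305.1.A1_at read 699.3, 691.3 and 627.1 in Bala control and 421.1, 335.8 and 518.0 in Bala arsenate against 0.3 to 8.2 in Azucena, and its _x_at partner read 757.7, 808.7 and 693.7 and then 486.3, 382.1 and 540.4 against 1.7 to 7.1. The third probe set of the gene, Os.11161.1.S1_at, was high in Azucena instead, at 57.8, 81.8 and 78.7 in control and 111.2, 96.2 and 72.4 with arsenate, against 2.3 to 10.9 in Bala. No probe set of this gene read high in both varieties.

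LOC4324010, a protein-coding gene on chromosome 1, again had 3 probe sets that disagreed. Os.20714.1.S1_at read 228.9, 259.3 and 318.6 in Bala control and 288.9, 239.6 and 277.4 in Bala arsenate against 0.4 to 3.7 in Azucena. Os.8761.1.S1_s_at was detected in both, at 74.0 to 110.4 in Azucena and 98.9 to 237.8 in Bala. Os.8761.2.S1_at was higher in Azucena, at 117.6 to 260.1 against 21.2 to 80.6, without overlap.

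LOC4337027, a protein-coding gene on chromosome 4, had the highest signal of the 10 genes. Its probe set among the 40, OsAffx.4161.1.S1_at, read 0.4 to 4.3 in Azucena, while the other probe set of the gene, Os.5631.1.S1_s_at, read 2162, 2017 and 2488 in Azucena control and 1555, 1462 and 2371 in Bala control. The 2 varieties overlapped on that probe set. Os.13565.1.A1_at, which has no gene in the annotation, read 861.1, 750.8 and 666.9 in Bala control against 0.4 to 6.8 in Azucena, whereas its partner Os.13565.1.A1_s_at read 217.9 to 561.4 in Azucena and 263.0 to 420.9 in Bala.

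Other probe sets kept the direction. LOC4340728, a protein-coding gene on chromosome 6, was read by Os.7270.1.S1_x_at at 0.3 to 8.9 in Azucena and by Os.52321.1.S1_at at 0.6 to 8.4. In Bala the second read 50.2 to 179.5, so both probe sets of this gene were high in Bala alone. The study's growth protocol refers to a gene for arsenate tolerance that maps to the same chromosome; the labels do not give its position, and no relation to LOC4340728 was tested. Os.10477.1.S1_at missed the rule through 1 Azucena array at 12.4 and read 813.2 to 1990 in Bala, the highest of the 8 that kept the direction. Os.48695.1.S1_s_at (304.7 to 1239 in Bala, 0.2 to 12.1 in Azucena) and OsAffx.22888.1.S1_x_at (98.1 to 822.5 in Bala, 1.6 to 15.3 in Azucena) also kept it, as did, at lower signals, Os.18503.1.S1_at (99.5 to 155.1 against 0.5 to 8.0) and OsAffx.6161.1.S1_x_at (30.2 to 90.9 against 0.2 to 4.3). For LOC4324311, a protein-coding gene on chromosome 1, Os.14216.1.S1_a_at read 306.4, 447.1 and 679.3 in Bala control and 389.8, 392.1 and 550.2 with arsenate, against 0.4 to 7.4 in Azucena. Os.14216.1.S1_at kept the direction at 35.9 to 90.3 against 4.2 to 14.3, Os.14216.2.S1_at read 7.0 or less on all 12 arrays, and Os.14216.3.S1_x_at, of the same cluster but without a gene in the annotation, read 124.2 to 288.1 across both varieties.

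**Figure D2:**
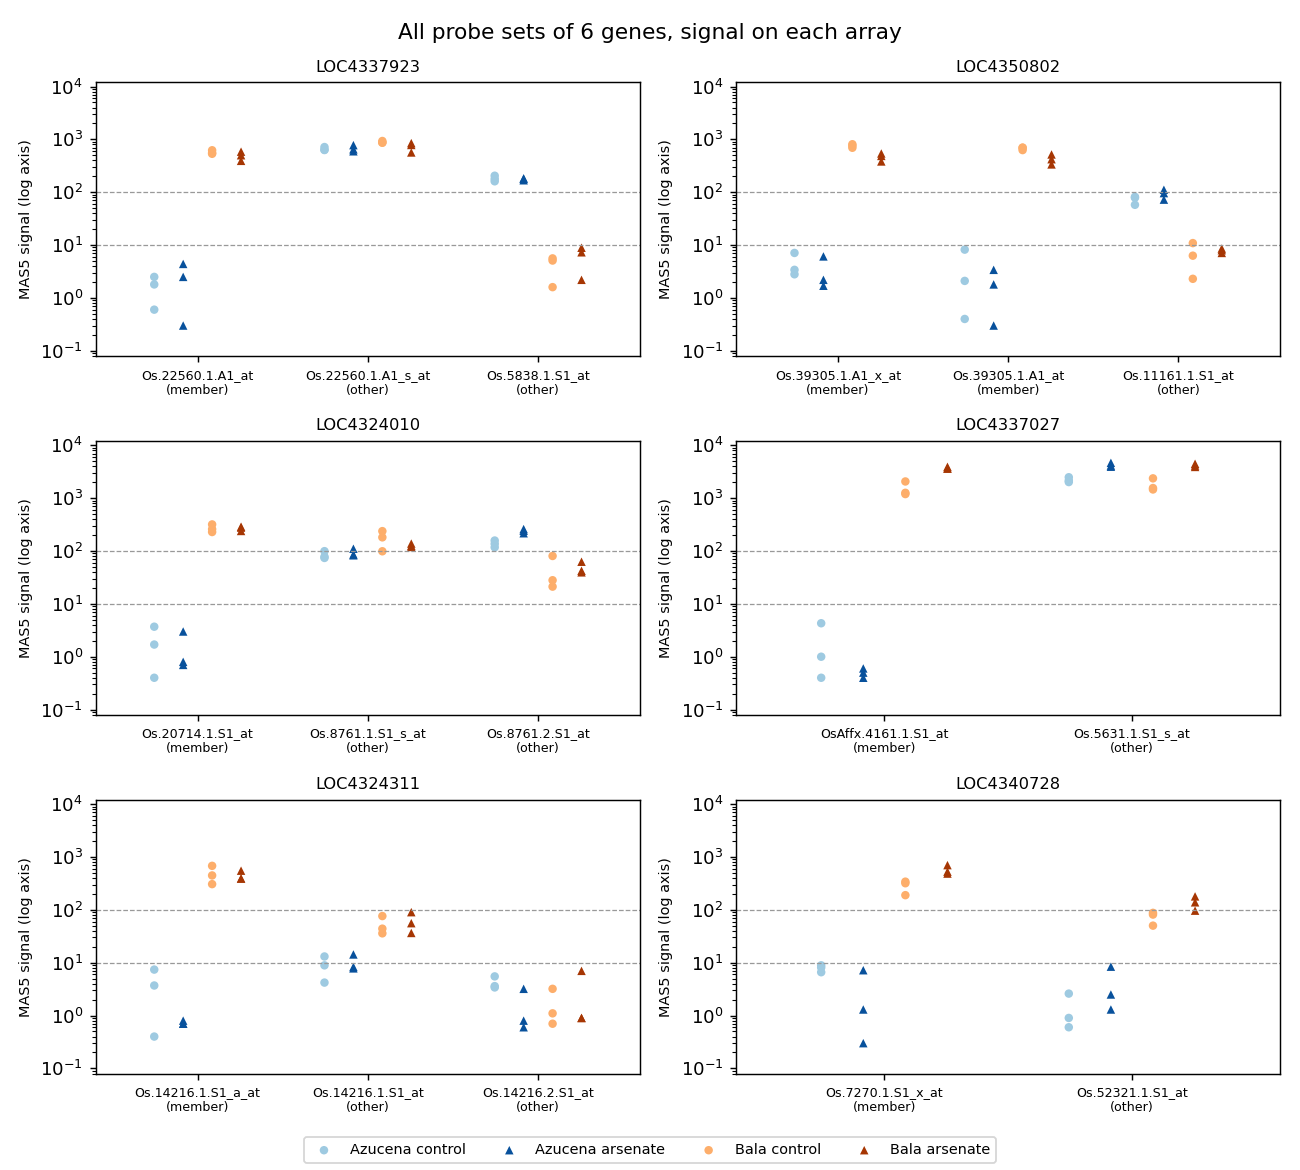
Signal (log axis) of every probe set of the 6 genes that have a probe set among the 40 and at least 1 outside it, with 3 arrays per group, circles for control, triangles for arsenate, blue for Azucena and orange to brown for Bala. Probe sets of LOC4337923, LOC4350802 and LOC4324010 run in opposite directions, LOC4337027 is high in both varieties on its second probe set, and both probe sets of LOC4340728 are high in Bala alone.

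The genes were spread over the genome as far as they could be placed. The 10 named genes matched RefSeq and lay on 8 chromosomes, with 2 each on chromosomes 1 and 11 and 1 each on chromosomes 2, 4, 5, 6, 8 and 9. Chromosome 11 held 4.7% of the genes on the array and 9 of the 39 genes of the mirror rule, and chromosome 1 held 14.8% and 5. No pair lay within 10 genes of each other: LOC4324010 and LOC4324311 on chromosome 1 were 68 annotated genes apart, and LOC4350667 and LOC4350802 on chromosome 11 were 230 apart. Among the 10 nearest genes on each side of the 10, 67 were measured, and Bala lay above Azucena without overlap for 2 of these (2.99%), against 2.82% of all 15638 genes measured. These were LOC4337926, near LOC4337923, and LOC4345177, near LOC4345175. Azucena lay above Bala for 9 of the 67 (13.43%), against 5.33% of all genes measured. The 29 unnamed probe sets have no position of their own in the annotation. Os.35216.2.S1_x_at shares a cluster with the probe set of LOC4329640 on chromosome 2, and Os.20063.1.S1_x_at and Os.20063.2.S1_at share a cluster with a probe set of LOC4345721 (Os.20063.1.S1_at, 21.3 to 104.4 in Bala against 0.3 to 3.0 in Azucena).

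Few of the 40 passed the test for an arsenate change in Bala roots, and a probe set that did not pass may still have changed. The comparison asks how transcripts read in the more arsenate-tolerant variety respond to the ion. OsAffx.4161.1.S1_at (LOC4337027) rose and OsAffx.19414.1.S1_at, which has no gene, fell, and the other 38 did not pass the test. The limma fit called 2 of 40 (5%), 1 higher and 1 lower, against 11.9% of all 28461 probe sets tested and 9.4% of those above 100 on all 6 Bala arrays. Higher calls were 6.19% and lower calls 5.68% of all tested, and 4.07% and 5.33% of those above 100 on all 6 Bala arrays. At an unadjusted p under 0.05 there were 7 of the 40 (17.5%), against 28.0% of all tested and 25.6% of those above 100 on all 6 Bala arrays. The rule did not use this contrast, but it kept out any probe set that arsenate took below 100 in Bala. It likewise kept out any that arsenate raised from 100 or less in a Bala control. The fit covers all 12 arrays, and near background the log2 signals of the 40 varied more: the median SD within a group was 0.67 and 0.52 in Azucena control and arsenate, and 0.43 and 0.27 in Bala. With the 6 Bala arrays alone 0 passed with the experiment as a block (5.96% of all probe sets) and 2 without it (5.56%).

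OsAffx.4161.1.S1_at (LOC4337027) read 1263, 1195 and 2071 in Bala control and 3613, 3922 and 3689 in Bala arsenate. All arsenate arrays lay above all controls, and the control of experiment 3 was the highest. The log2 change was 1.35 ± 0.29 (SE, 3 arrays per group), or 2.55-fold, with a limma adjusted p of 0.0195. The second probe set assigned to the gene, an _s_at probe set whose signal need not come from it alone, rose in both varieties. Os.5631.1.S1_s_at went from 1555, 1462 and 2371 to 3901, 4477 and 4152 in Bala (log2 change 1.25 ± 0.18, limma adjusted p = 0.00409) and from 2162, 2017 and 2488 to 3937, 4137 and 4662 in Azucena (0.94 ± 0.18, limma adjusted p = 0.00956). The difference between the varieties in that change was 0.31 ± 0.26 (limma adjusted p = 0.745). The test did not detect a difference between the varieties in the rise of that probe set.

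OsAffx.19414.1.S1_at read 937.1, 1147 and 924.3 in Bala control and 389.2, 305.1 and 540.6 in Bala arsenate. Every arsenate array lay below every control, and the log2 change was -1.31 ± 0.25 (limma adjusted p = 0.0129). Its cluster mate OsAffx.19414.2.S1_at read at most 18.1 on any array, with 4.5, 5.2 and 18.1 in Bala control and 1.1, 0.8 and 0.4 in Bala arsenate. These values lay in the same direction but near background, and the mate did not pass the filter and was not tested. Both calls were lost in some fits: without Bala arsenate 1 or 2 the adjusted p was 0.0838 and 0.0812 for OsAffx.4161.1.S1_at and 0.0552 and 0.0580 for OsAffx.19414.1.S1_at. It was 0.0730 and 0.0671 for the first without Bala control 1 and 2, and 0.0510 for the second without Bala control 2. Leaving out all of experiment 1 or 2 ended both calls, with adjusted p between 0.129 and 0.199.

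For several others every arsenate array lay on 1 side of every control although the test was not passed. With the 2 called probe sets, the arsenate arrays lay above the controls for 3 and below them for 7, or 7.5% and 17.5%, against 16.7% and 16.3% of all probe sets above 100 on the 6 Bala arrays. Os.7270.1.S1_x_at (LOC4340728) read 189.4, 318.6 and 341.1 in control and 526.6, 484.8 and 700.8 with arsenate (log2 change 1.03 ± 0.39, limma adjusted p = 0.126). Its second probe set Os.52321.1.S1_at went from 50.2, 81.3 and 87.6 to 138.7, 96.4 and 179.5 (0.90 ± 0.44, limma adjusted p = 0.218), so both probe sets of this gene read higher with arsenate and neither passed. Os.13565.1.A1_at, at 861.1, 750.8 and 666.9 and then 1110, 918.6 and 1092, was the third above its controls (0.46 ± 0.38).

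Among those below their controls, Os.23105.1.A1_at read 739.6, 937.7 and 682.1 in control and 433.4, 380.9 and 469.3 with arsenate (log2 change -0.87 ± 0.27, limma adjusted p = 0.0749). The 2 probe sets of LOC4350802 had log2 changes of -0.68 ± 0.44 and -0.69 ± 0.33, and Os.35216.2.S1_x_at had -0.70 ± 0.28. Its cluster mate Os.35216.1.S1_at (LOC4329640) had -0.48 ± 0.47, and its arsenate and control arrays overlapped. Os.48060.1.A1_at had one of the largest changes short of the test, at 1330, 1291 and 464.5 in control and 485.2, 664.3 and 251.9 with arsenate (-1.09 ± 0.34, limma adjusted p = 0.0687). Its experiment 3 was the lowest in both groups, so that the groups overlapped although each experiment gave a lower arsenate value. Among the 40 the log2 change was below 0 for 31 (77.5%) and above 0 for 9. Over all tested probe sets 45.9% were below 0, and over those above 100 on all Bala arrays 48.2%. The 40 share arrays and in part clusters, so they are not separate readings. Without Bala control 3, or without experiment 3, 24 of the 40 were below 0. The 40 had a median of -0.24, while the median over all tested probe sets was 0.06 and over those above 100 on all Bala arrays 0.02. The median over the 40 was below 0 in all 19 other fits, between -0.41 and -0.23, but these fits reuse the same arrays. When arrays were centred on their medians, the median over all tested probe sets became -0.10 and that over the 40 became -0.40.

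**Figure D3:**
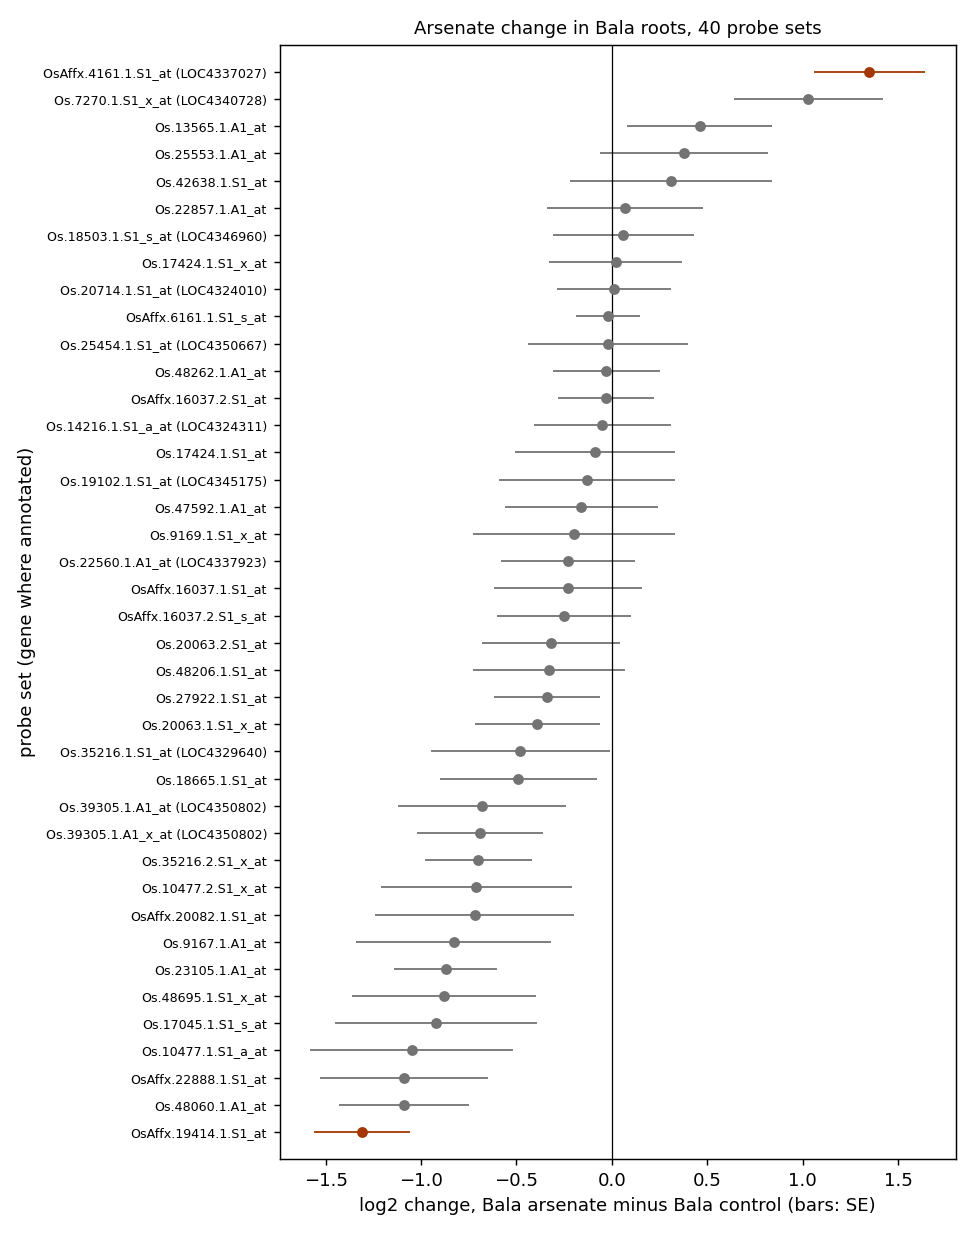
Log2 change of each of the 40 probe sets in Bala, arsenate minus control, from the limma fit of all 12 arrays with the experiment as a block; bars are the SE with 3 arrays per group. The 2 probe sets that passed the test are in brown, at 1.35 and -1.31, and the other 38 are in grey between -1.09 and 1.03.

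The remaining named genes showed no detectable arsenate change in Bala. LOC4324010 (Os.20714.1.S1_at, log2 change 0.01 ± 0.30), LOC4350667 (Os.25454.1.S1_at, -0.02 ± 0.42) and LOC4324311 (-0.05 ± 0.36) lay nearest to 0. Os.25454.1.S1_at of LOC4350667, the second highest of the named genes, read 699.1, 709.4 and 950.2 in control and 764.2, 661.0 and 886.4 with arsenate. The long non-coding RNA LOC4346960 (Os.18503.1.S1_s_at) had 0.06 ± 0.37, with 293.0, 385.8 and 575.2 and then 386.3, 401.3 and 477.8, and LOC4345175 had -0.13 ± 0.46, with 125.5, 146.7 and 294.4 and then 149.3, 143.9 and 190.4. For LOC4337923 the change was -0.23 ± 0.35 on its probe set among the 40 and -0.30 ± 0.20 on Os.22560.1.A1_s_at. Signs of RNA quality moved with arsenate in Bala: the 3' to 5' ratio was 1.43 to 2.17 in controls and 3.53 to 3.78 with arsenate for GAPDH, and 2.54 to 3.66 and 6.82 to 8.59 for actin, while cyclophilin overlapped (1.88 to 2.44 and 2.08 to 2.90). Their part in the changes above was not tested.

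The experiments differed among themselves within Bala. The summed signal of the green shoot markers was highest there in experiment 3. It was 1017, 2600.5 and 3758 in Bala controls and 331.3, 184.3 and 3417 in Bala arsenate in experiments 1 to 3. Its part in the differences below was not tested. The highest over the lowest of the 6 Bala arrays was 1.21 for the steadiest probe set, OsAffx.16037.2.S1_at, 2.20 for the median and 5.30 for the most variable, OsAffx.22888.1.S1_at, and the median over all probe sets above 100 on the 6 Bala arrays was 1.76. Both arrays of experiment 3 lay above the other 4 for 7 of the 40 (17.5%, against 13.1% of all probe sets above 100) and below them for 4 (10%, against 9.84%). LOC4324311, LOC4346960, LOC4345175 and LOC4350667 were among the 7. Os.47592.1.A1_at was among the 4, at 626.4 and 481.2 in the controls of experiments 1 and 2 and 129.7 in that of experiment 3. Os.17045.1.S1_s_at had a single high array, 739.8 in control 3 against 155.7 to 258.9 on the other 5.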

How the data were processed

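The authors deposited intensity on a linear scale, 1 array per sample, made with MAS5 according to the submitters' processing notes (version not given in the sources used here). Samples were grouped by title. Affymetrix controls were set aside, and 57258 probe sets remained. Signals were taken as log2(signal + 2.1), 2.1 being their 25th percentile, and the 28461 probe sets with a mean above the median of 9.4, all 40 described here among them, were fitted with limma 3.58.1 in R 4.3.3 (4 group means plus a block for experiment; degrees of freedom 6 residual, 2.85 prior). Adjustment followed Benjamini and Hochberg over all 28461 at a threshold of 0.05. The series text says that a replicate number marks 1 experiment, which gives the pairing; deviations from group means correlated at 0.134, 0.0450 and 0.291 between the Bala arrays of experiments 1 to 3. The fit was tested on simulated data in which all groups shared the Bala control mean, apart from changes added in Bala arsenate. Those data held no experiment effect and no probe set high in Bala and near background in Azucena, so they cannot show how the fit treats the 40. Genes came from the platform annotation and neighbours from the gene order in RefSeq (ASM3414082v1, japonica). Its coordinates were used for that order only and are not printed, because the annotation names no build. Values are given for probe sets with a gene, those that passed the test, those with another probe set and those at the limits of the rule; other probe sets singled out were chosen after their values were seen. The members and lists were chosen with earlier results of these data known. Alternatives were other pseudocounts, filters, scalings, limits and fits, and leaving out arrays or experiments. Probe-level files and sequences were not used here.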

Additional observations from a re-analysis of the deposited data

How the results depend on the processing

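The number of probe sets was 66 with limits of 50 and 10, 24 with 200 and 10 and 11 with 100 and 5 (58 with 100 and 20), 38 after quantile normalization, 37 after division by array medians, and 40 to 43 without 1 array. The 2 calls for arsenate in Bala became 0 with the 5th percentile of signals as pseudocount, 7 with the 50th, 1 without the filter and 4 with it at the 70th percentile, 4 after centring on array medians, 0 with the 6 Bala arrays alone (2 without the block, a fit chosen after the data were seen), 0 to 3 without 1 Bala array, and 0, 0 and 3 without experiment 1, 2 and 3. Without the replicate block the count stayed at 2. The share called over all tested probe sets also rose with the 50th percentile as pseudocount and with the filter at the 70th percentile. It fell with the 5th percentile, without the filter, with the 6 Bala arrays alone, and without any 1 Bala array or experiment. After centring, and without experiment 3 or Bala control 3, the count over the 40 rose while that share fell. The sign of the 2 called changes held in every alternative; the call for OsAffx.4161.1.S1_at was lost in 9 of 19 and that for OsAffx.19414.1.S1_at in 7 of 19. Changes near 0 crossed it. Os.20714.1.S1_at had -0.02 after quantile normalization, -0.15 after centring and -0.16 without experiment 1. Os.25454.1.S1_at had 0.01 after quantile normalization, 0.01 without experiment 2 and 0.01 without experiment 3. Os.18503.1.S1_s_at had -0.10 after centring and -0.11 without experiment 1. Os.14216.1.S1_a_at had 0.02 and 0.08 without experiment 2 and 3, and Os.19102.1.S1_at 0.11 without experiment 3. Without 1 Bala array the range was -0.23 to 0.13 for Os.20714.1.S1_at, -0.30 to 0.30 for Os.25454.1.S1_at, -0.35 to 0.43 for Os.18503.1.S1_s_at, -0.33 to 0.14 for Os.14216.1.S1_a_at, -0.26 to 0.05 for Os.19102.1.S1_at and -0.37 to 0.03 for Os.22560.1.A1_at. Os.7270.1.S1_x_at passed with the 50th percentile as pseudocount (1.01). The cause of these shifts was not tested. Signals near background limit every Azucena value of the 40.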
